A study of Mus musculus with 15 samples.

Results

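Acute phase proteins are plasma proteins whose output by hepatocytes changes during inflammation. Interleukin-6, acting through the receptor chain gp130 and the transcription factor STAT3, is their best known inducer in liver, and interleukin-1, acting through NF-kB and C/EBP factors, is another. Saa1, Saa2, Saa3, Orm1, Orm2, Hp, Lcn2, Fga, Fgb and Fgg, acute phase genes of the kind that rises, were taken by symbol from the deposited gene table and were 10 of its 24347 entries. All 10 passed the filter on low values, which left 12703 genes for testing.

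They were followed in bulk RNA-seq libraries of primary hepatocytes, obtained by stepwise digestion of the liver of young adult wild type mice. There were 5 groups of 3 libraries. One set of cells was held for 2 h with recombinant IL-13, a type 2 cytokine, at 10 ng/mL and then given 100 µM cAMP or 100 nM glucagon for 3 h with the cytokine still present. These are the groups cAMP with IL-13 and glucagon with IL-13. The groups cAMP and glucagon had the stimulus without the cytokine, and the vehicle group had neither. Glucagon, the hormone of fasting, acts on hepatocytes through cAMP. IL-13 was never given alone, so what it does without a stimulus, and what it does to a stimulus, cannot be told apart. The strain is not settled: the labels run upwards by 1 per sample between C57BL/6 and C57BL/20, while the methods name BALB/c. Nothing in the labels tells whether libraries within a group are separate mice, cultures or preparations, so each p-value reflects library-to-library spread alone, possibly of technical origin. In these bulk samples, fewer cells of a type and less RNA per cell cannot be told apart.

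Values are given as scaled reads, the estimated reads of a gene multiplied by the authors by 1 factor per library, or, where different genes are set side by side, as FPKM, which also divides by transcript length. Scaled reads summed to between 18793294 and 19955402 per library. All 12 hepatocyte markers examined were present in every group. Summed, they stood at 1098000 to 1185000 scaled reads with cAMP and 1081000 to 1136000 with glucagon, against 999100 to 1080000 with vehicle. Limma called 5 of the 12 higher and 0 lower with cAMP (median log2 fold change 0.15). With glucagon it called 3 higher and 0 lower (0.12). Of all genes, 13% rose with cAMP and 9.35% with glucagon. The markers include Hnf4a, at 6670, 6439 and 6401 scaled reads with cAMP against 3714, 4660 and 4374 with vehicle. Tat, another, ran from 2295 to 21040 over all libraries. The part of the share of hepatocytes, or of regulation of single markers, in these calls was not tested. Vehicle libraries carry no number that ties them to a sample and are called a, b and c. Vehicle library a stood apart by transcript length: among 9141 genes, its log2 levels changed by -0.17 per doubling of length relative to the mean of all libraries, against -0.04 to 0.07 in the other 14 libraries. Calls on the 10 genes and counts over gene lists are therefore given with and without it.

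The serum amyloid A genes Saa1, Saa2 and Saa3 encode apolipoproteins of high density lipoprotein, and lie on chromosome 7 (GRCm38.p6: Saa1 46740497 to 46743181, Saa2 46751833 to 46754313, Saa3 46711998 to 46719615). Orm1 and Orm2 encode orosomucoids, acidic glycoproteins that bind drugs and lipids, on chromosome 4 (63344556 to 63348163 and 63362449 to 63365877). Hp (chromosome 8, 109575128 to 109579172) encodes haptoglobin, which binds free haemoglobin. Lcn2 (chromosome 2, 32384637 to 32387739) encodes lipocalin 2, which withholds iron from bacteria by binding their siderophores. The 3 fibrinogen chains are encoded side by side on chromosome 3 by Fgg (83007724 to 83015056), Fga (83026153 to 83033627) and Fgb (83042246 to 83049863), and form the clot protein.

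Promoter sequences of RefSeq (GRCm38.p6, 250 bases before to 50 after the start) were matched by symbol for 8 of the 10 genes, all but Orm1 and Hp. Both strands were searched for letters bound by the known regulators of this gene class: TTNNGNAA for C/EBP, GGNNTTTCC for NF-kB, TTCNNNGAA for STAT proteins, TTCNNNNGAA, a wider spacing bound by STAT6, and TGACG, the core of a cAMP response element. The C/EBP letters stood in 7 of the 8 promoters, all but Fgg, and in 40.7% of all 32851 promoters. The STAT letters stood in Fga and Fgb, and in 8.3% of all promoters. NF-kB letters were found in Saa3 alone among the 8 (5.8% of all promoters), and the STAT6 spacing in Lcn2 alone (7.0%). In Lcn2, 139 of the 173 bases from position -250 to -78, the stretch that holds its matches, lie inside annotated exons. Over the same positions, the stretch of Saa3 lies wholly within the gene span given above, and that of Saa1 in part. For these 2 genes the start used is thus not the gene end given above, though 0 bases of either stretch lie inside annotated exons. None of the 8 held TGACG, which stood in 20.8% of all promoters. A match is a description and not a binding site, and the absence of a match says only that these letters were not in this window.

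Stretches from position -250 to -78 are shown for the pair of near-identical genes Saa1 and Saa2, for Saa3, which held both NF-kB and C/EBP letters, for Orm2, and for the fibrinogen genes with STAT letters. Each stretch runs 5′ to 3′ along the strand of its gene, and capitals mark matches to any of the motifs. In Fgb, a C/EBP match that runs past the end of the stretch is left unmarked. In Saa3 the NF-kB letters, read on the opposite strand, share bases with a C/EBP match.
Saa1 (chr7:46743058-46743230, minus strand): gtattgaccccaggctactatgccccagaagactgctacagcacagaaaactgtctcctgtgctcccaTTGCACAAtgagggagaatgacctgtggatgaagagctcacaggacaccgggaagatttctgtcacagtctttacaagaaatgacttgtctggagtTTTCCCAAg
Saa2 (chr7:46751583-46751755, plus strand): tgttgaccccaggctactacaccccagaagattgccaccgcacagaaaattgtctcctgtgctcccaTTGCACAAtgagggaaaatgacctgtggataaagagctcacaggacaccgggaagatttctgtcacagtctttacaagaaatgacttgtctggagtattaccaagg
Saa3 (chr7:46715754-46715926, minus strand): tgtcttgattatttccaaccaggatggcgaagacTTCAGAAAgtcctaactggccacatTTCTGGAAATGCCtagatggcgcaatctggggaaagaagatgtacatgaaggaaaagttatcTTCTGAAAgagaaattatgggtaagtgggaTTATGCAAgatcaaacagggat
Orm2 (chr4:63362199-63362371, plus strand): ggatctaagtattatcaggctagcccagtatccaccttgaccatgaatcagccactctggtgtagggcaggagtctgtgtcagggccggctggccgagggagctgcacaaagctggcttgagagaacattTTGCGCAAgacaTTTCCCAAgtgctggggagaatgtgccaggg
Fga (chr3:83025903-83026075, plus strand): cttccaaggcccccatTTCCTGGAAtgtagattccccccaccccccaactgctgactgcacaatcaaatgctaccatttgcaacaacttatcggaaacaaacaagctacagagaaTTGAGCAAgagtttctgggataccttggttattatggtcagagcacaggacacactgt
Fgb (chr3:83049941-83050113, minus strand): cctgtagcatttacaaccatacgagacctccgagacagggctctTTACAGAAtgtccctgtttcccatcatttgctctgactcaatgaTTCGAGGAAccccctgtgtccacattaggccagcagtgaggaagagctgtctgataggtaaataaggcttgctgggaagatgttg

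Over the 250 bases before the promoter start used, Saa1 and Saa2 shared 238 identical bases. The likeness extends to the messages: the coding transcripts of Saa1 and Saa2 were identical at 93.9% of positions of the shorter one, and those of Orm1 and Orm2 at 91.0%. Of the windows of 50 bases in the coding transcripts, 14.8% of those of Saa1 and 11.8% of those of Saa2 occurred in another gene, mostly the partner. For Saa3 the share was 3.6%, with windows found in 245 other genes. The shares were 20.4% for Orm1 and 22.7% for Orm2, which share windows with each other and with Orm3. None of the windows of Hp, Lcn2 or the fibrinogen genes occurred in another gene. Only exact matches were sought, so reads that align with mismatches were not examined. Values of Saa1 against Saa2, and of Orm1 against Orm2, rest in part on how the authors' counting split shared reads.

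All 10 genes were expressed in every library, most of them among the most abundant transcripts of the cells. On the FPKM scale Saa1 averaged 4454 over the 15 libraries and ranked 13 among all entries, and Hp averaged 4254 (rank 15). Saa2 followed at 3228 (rank 17), Lcn2 at 2104 (rank 34) and Orm1 at 1883 (rank 41). Lower levels were found for Fgb (1008 FPKM), Orm2 (617), Fgg (514), Fga (299) and Saa3 (74.8, rank 1172). The fibrinogen genes, whose products join in equal numbers in the protein, thus ran in the order Fgb, Fgg and Fga in mean FPKM. Together the 10 genes made up a mean of 3.02% of all FPKM with cAMP and IL-13, 3.01% with cAMP, 3.02% with glucagon and IL-13, 2.99% with glucagon and 2.96% with vehicle. The highest library exceeded the lowest by a factor of only 1.19 for Lcn2, and by 1.42 for Saa3, the widest range of the 10.

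**Figure D1:**
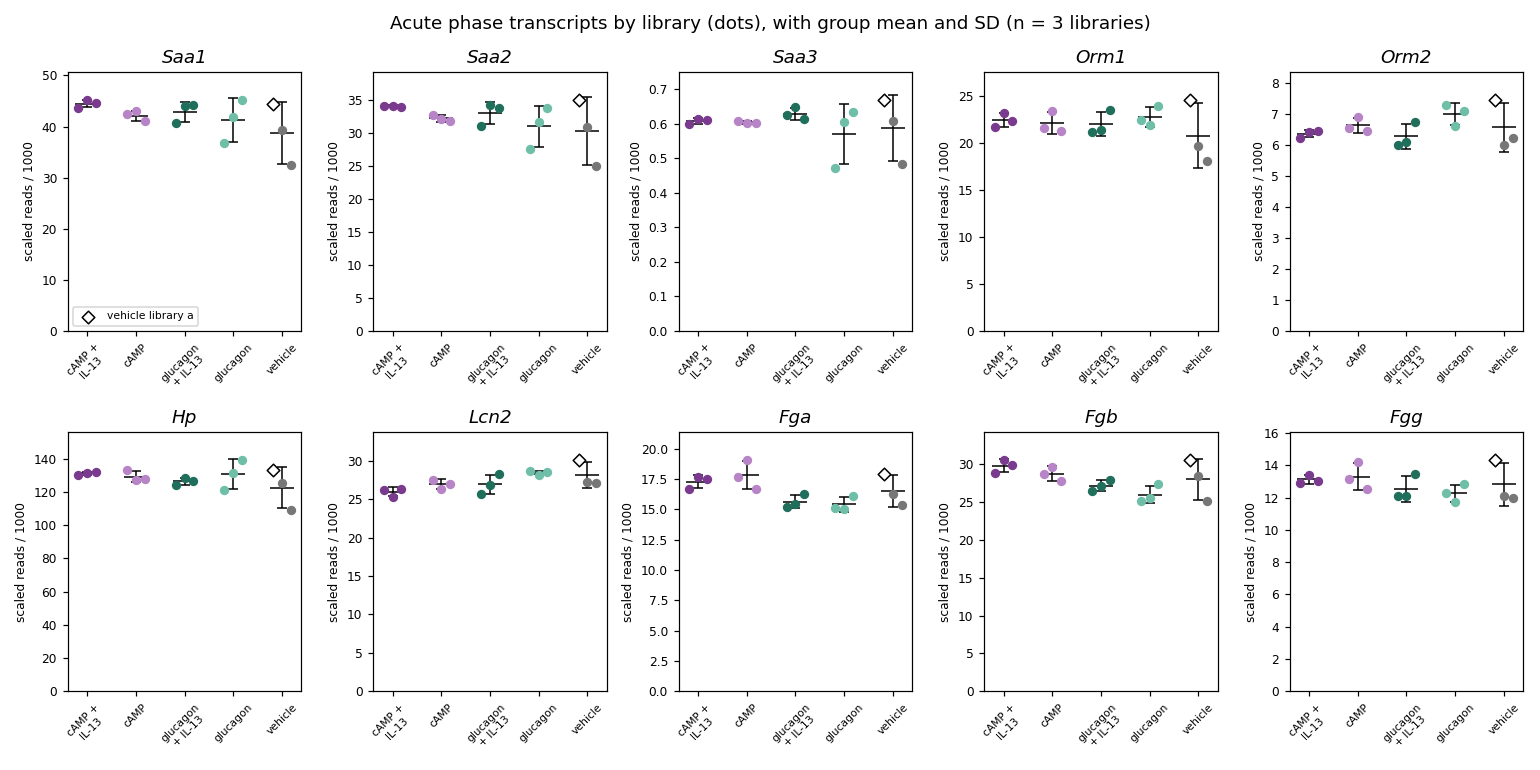
Scaled reads divided by 1000 (y axis, from 0) of each of the 10 genes in the 15 libraries, by group (x axis). Dots are libraries, bars give mean and SD of 3 libraries, and the open diamond is vehicle library a, which was the highest vehicle library for every gene shown.

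None of the 10 genes passed the test across all genes with cAMP or with glucagon. With cAMP against vehicle, limma called 0 of 10 members at an adjusted p under 0.05, beside 25.8% of all genes tested, and 0 at an unadjusted p under 0.05, beside 35.8% of all genes. With glucagon against vehicle it called 0 of 10, beside 18.9% of all genes, and 0 without adjustment, beside 30.5%. The groups overlapped for all 10 genes in both comparisons, while 34.7% of all genes had no overlap with cAMP and 28.5% with glucagon. The median log2 fold change of the 10 was 0.07 with cAMP and 0.03 with glucagon, beside 0.01 and 0.02 for all genes. A p above the threshold does not show that levels were equal, but the 95% intervals were narrow: they ran from 0.888-fold to 1.26-fold with cAMP and from 0.831-fold to 1.25-fold with glucagon over the 10 genes.

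Saa1, the most abundant of the 10 by FPKM, stood at 42392, 42954.5 and 41081 scaled reads in the cAMP libraries and at 36783, 41895 and 45275.5 in the glucagon libraries, against 44472, 39343 and 32501.5 in vehicle libraries a, b and c. The vehicle libraries thus ran from above to below every cAMP library. The log2 fold change of Saa1 was 0.13 with cAMP (95% interval -0.07 to 0.33, limma adjusted p = 0.334) and 0.10 with glucagon (-0.10 to 0.30, limma adjusted p = 0.524). Its near copy Saa2 stood at 32160 ± 499 with cAMP and 30930 ± 3146 with glucagon, against 30240 ± 5082 with vehicle (SD, n = 3 each). Saa3, which in mice is also made by macrophages, had 603.8 ± 3.8 scaled reads with cAMP and 569.5 ± 86.8 with glucagon, against 587.5 ± 94.2 with vehicle (SD, n = 3 each). Summing Saa1 and Saa2 to 1 gene gave 0.12 with cAMP and 0.07 with glucagon (limma adjusted p = 0.408 and 0.658).

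Hp, the member with the most reads, had 129200 ± 3506 scaled reads with cAMP and 130500 ± 9069 with glucagon, against 122400 ± 12390 with vehicle (SD, n = 3 each). Orm1 had 22100 ± 1156 with cAMP and 22800 ± 1075 with glucagon, against 20800 ± 3414 with vehicle (SD, n = 3 each). These differences were smaller than the spread of the vehicle libraries. Lcn2 was the steadiest gene: its 3 glucagon libraries lay at 28689, 28195 and 28481 scaled reads and its cAMP libraries at 27545, 26292 and 27028, against 30102, 27194 and 27120 in vehicle a, b and c. Its 95% intervals, -0.16 to 0.03 with cAMP and -0.08 to 0.11 with glucagon on the log2 scale, were the narrowest of the 10. Lipocalin 2 is also a granule protein of neutrophils, and 11 neutrophil markers, of which 2 passed the filter on low values, summed to 34.2 to 278 scaled reads in the vehicle libraries and to 22.4 to 59.9 in the other 12. S100a8, one of them, had 52.5, 22.3 and 0 scaled reads in vehicle a, b and c. Csf3r and Cxcr2, the 2 that passed the filter, did not follow it. Csf3r had 22.04, 34.29 and 21.85 in these libraries and 41.86, 46.07 and 38.72 with glucagon and IL-13. Cxcr2 ran from 8.2 to 18.1 over all libraries. The part of such cells in the Lcn2 values was not tested. Of the fibrinogen genes, Fga came nearest to a call with cAMP (0.11, -0.01 to 0.23, limma adjusted p = 0.181).

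**Figure D2:**
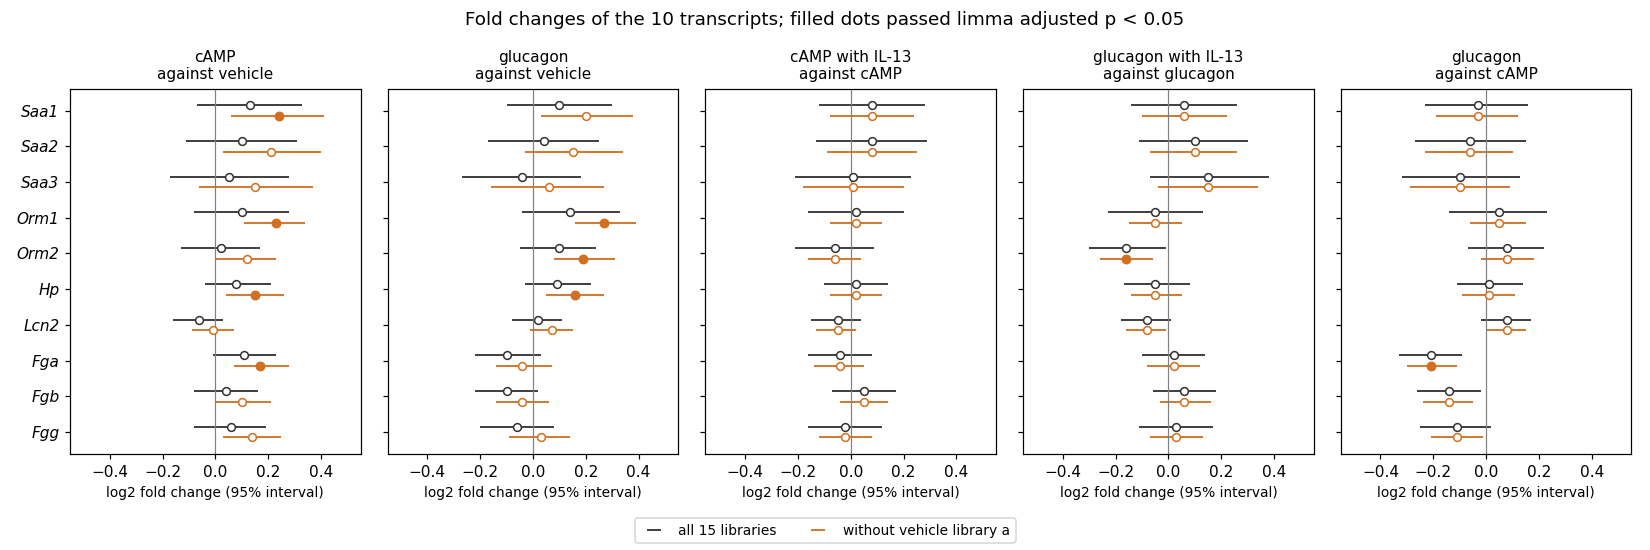
Log2 fold changes (x axis) with 95% intervals of the 10 genes (rows) in 5 comparisons, from all 15 libraries and without vehicle library a. Filled dots passed a limma adjusted p of 0.05: none with all libraries. Without library a, 4 were filled for cAMP and 3 for glucagon against vehicle. There was also 1 for glucagon with IL-13 against glucagon (Orm2) and 1 for glucagon against cAMP (Fga).

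These counts rested on 1 library. Without vehicle library a, limma called 4 of 10 members higher with cAMP, beside 28.9% of all genes. They were Saa1 (0.24, SE 0.08, limma adjusted p = 0.0441), Orm1 (0.23, SE 0.06, limma adjusted p = 0.00337), Fga (0.17, SE 0.05, limma adjusted p = 0.015) and Hp (0.15, SE 0.05, limma adjusted p = 0.0442). With glucagon, Orm1 (0.27), Orm2 (0.19) and Hp (0.16) were then called, 3 of 10 beside 24.4% of all genes. Leaving out vehicle library c instead gave 1 call with glucagon, Fgb, in the other direction (-0.18, limma adjusted p = 0.0141). No interval without library a reached beyond 1.33-fold with cAMP or 1.31-fold with glucagon. The median of the 10 without library a was 0.15 with cAMP and 0.11 with glucagon, and the median of all genes 0.001 in both.

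Within groups, the levels of the 10 genes moved with the library's slope on transcript length. The part of that slope in the calls made without vehicle library a was not tested. The vehicle libraries differed more in the members (median SD 0.158 on the log2 scale) than in other genes with a mean of at least 500 scaled reads (0.116), and the cAMP libraries less (0.044 against 0.062). Taken as deviations from group means over the 15 libraries, each of the 10 members was negatively correlated with the library's slope on transcript length (Pearson r -0.91 for Orm1, -0.87 for Saa1 and -0.73 for Orm2, the weakest), a description over libraries of which vehicle a is an extreme point. Vehicle libraries a and c lay at the ends of the range of slopes, at -0.167 and 0.072. The correlation was not computed over all genes, so whether it is particular to these 10 is not known. Saa1, Saa2, Orm1, Orm2 and Lcn2 have transcripts of 609 to 915 bases, where the median of the genes tested was 3063, but Fgb (3810 bases) had a correlation of -0.84 too. Removing the length trend from every library lowered the SD of Saa1 among vehicle libraries to 0.108, against 0.228 as deposited, and raised that of Fgb to 0.188, against 0.141. After that step, an alternative chosen after seeing the data, limma called 0 of 10 members with cAMP and 0 with glucagon against vehicle. All 15 libraries as deposited had also given 0 of 10 in both comparisons. Removal was not combined with leaving out vehicle library a, so the calls made without that library were not examined this way.

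**Figure D3:**
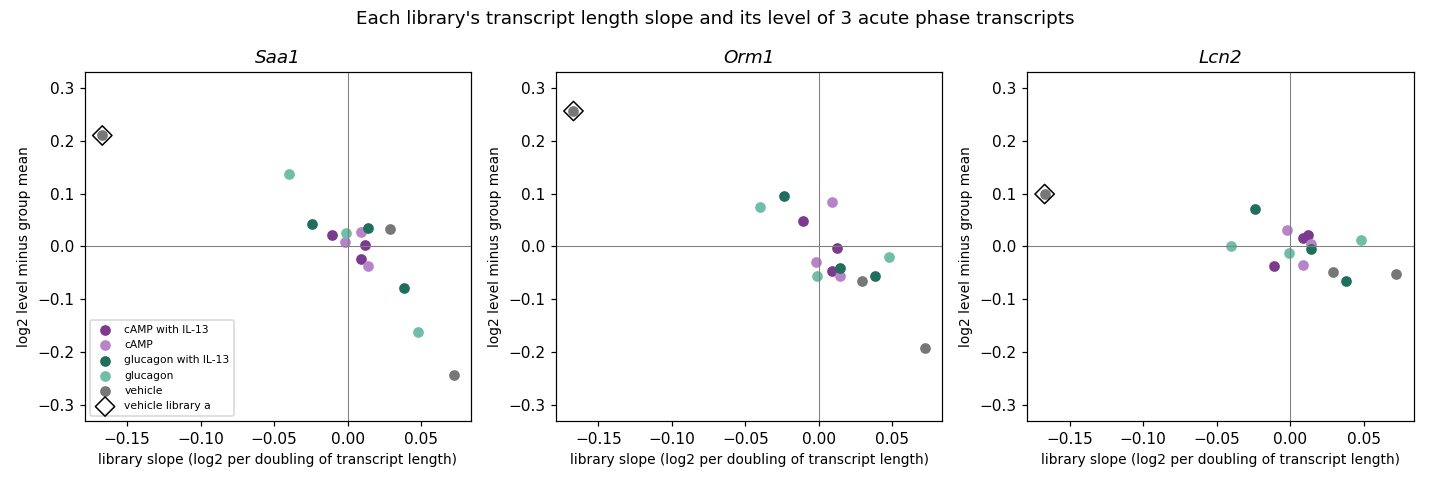
Log2 level of Saa1, Orm1 and Lcn2 in each library minus its group mean (y axis) against the library's slope of log2 level on log2 transcript length (x axis). Vehicle library a (diamond) lies at a slope of -0.167 and vehicle library c at 0.072, the ends of the range.

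None of the 10 genes passed the test for IL-13 on top of a stimulus. For cAMP with IL-13 against cAMP, limma called 0 of 10 members beside 3.9% of all genes (0 at an unadjusted p under 0.05, beside 13.1%), with a median log2 fold change of 0.01 and intervals within -0.21 to 0.29. The 3.9% are 495 genes, which became 765 without vehicle library a and 282 to 323 without cAMP library 1 or 3 or any single library of cAMP with IL-13. For glucagon with IL-13 against glucagon it called 0 of 10, beside 5.73% of all genes (1 at an unadjusted p under 0.05, beside 18.2%), with a median of 0.02 and intervals within -0.30 to 0.38. The 5.73% are 728 genes, which became 1218 without vehicle library a and 430 to 483 without glucagon library 1 or 3 or library 1 or 2 of glucagon with IL-13. The difference between the IL-13 effects under glucagon and under cAMP was called for 0 of 10 members (0 unadjusted) and 0% of all genes, of which 608 of 12703 were under 0.05 without adjustment.

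Some groups stood apart by small amounts. Saa1 had 43719, 45151 and 44538.5 scaled reads with cAMP and IL-13, against 42392, 42954.5 and 41081 with cAMP alone, so every library with IL-13 was above every library without it. Saa2 was separated in the same way at 33970 ± 137 with IL-13 and 32160 ± 499 without (SD, n = 3 each), and Orm2 in the other direction at 6371 ± 113 and 6644 ± 249 (SD, n = 3 each). The log2 fold changes were 0.08, 0.08 and -0.06, within the spread that the fit assigns to these genes (limma adjusted p = 0.865, 0.873 and 0.858). These 3 of 10 members without overlap compare with 24.8% of all genes. With glucagon, Orm2 gave the lowest p: 5998, 6097 and 6761 scaled reads with IL-13, against 7308, 6609 and 7112 without, a log2 fold change of -0.16 (-0.30 to -0.01, limma adjusted p = 0.231). Orm2 passed without vehicle library a (limma adjusted p = 0.0434), when 9.59% of all genes did. Saa3 had its largest value in this comparison (0.15, -0.07 to 0.38), where glucagon library 1, at 470.7 scaled reads against 604.8 and 633.1 in the other glucagon libraries, lay low.

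Between glucagon and cAMP, Fga and Fgb gave the lowest p-values of the 10 genes, neither past the threshold. Fga had 15107, 15033 and 16122 scaled reads with glucagon, against 17701, 19074 and 16700 with cAMP, a log2 fold change of -0.21 (-0.33 to -0.09, limma adjusted p = 0.0514). Fgb had 25171, 25497 and 27341 with glucagon, against 28768, 29693 and 27730.5 with cAMP, a log2 fold change of -0.14 (-0.26 to -0.02, limma adjusted p = 0.208). Every glucagon library was below every cAMP library for both genes, while Fgg overlapped (-0.11, -0.25 to 0.02). Over all members the comparison gave 0 of 10 calls, beside 4.27% of all genes called, and 2 at an unadjusted p under 0.05, beside 15.1%. There were 3 of 10 without overlap (Lcn2, higher with glucagon, was the third) beside 20.7% of all genes. The call for Fga lay at the threshold: without vehicle library a, which enters only through the shared estimate of spread, it passed (limma adjusted p = 0.0061, with 7.08% of all genes called). The 543 genes called in this comparison became 899 without vehicle library a and 355 and 356 without cAMP library 1 and 3. In groups with IL-13 the order of Fga was kept, at 15630 ± 549 with glucagon and IL-13 and 17290 ± 550 with cAMP and IL-13 (SD, n = 3 each), a difference that was not tested.

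Set directly against vehicle, cAMP with IL-13 gave 0 of 10 calls, beside 26.2% of all genes, and 2 at an unadjusted p under 0.05, beside 36.1%. Lcn2 had 26244, 25327 and 26348 scaled reads with cAMP and IL-13, against 30102, 27194 and 27120 with vehicle, so no library overlapped (-0.11, -0.21 to -0.02, limma adjusted p = 0.0725). It was the 1 member of 10 without overlap, beside 38.8% of all genes. Saa1 was the highest of the 10 on the fold scale (0.21, 0.01 to 0.41, limma adjusted p = 0.116). Without vehicle library a, 5 of 10 were called, all higher (Saa1 0.31, Saa2 0.29, Orm1 0.25, Hp 0.17 and Fgb 0.16), beside 29.6% of all genes, and Lcn2 was at -0.06. For glucagon with IL-13 against vehicle, 0 of 10 were called, beside 20.6% of all genes (0 unadjusted, beside 31%), and without library a Saa1 (0.26) and Orm1 (0.22), 2 of 10 beside 23% of all genes. All comparisons with vehicle share its libraries and are not independent.

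Many of the listed genes that carry acute phase signals passed the test. This list and those below were chosen with earlier results of these data known, so counts over them are descriptions. Of 42 receptors, kinases and transcription factors tested, 12 rose and 15 fell with cAMP, and 12 rose and 13 fell with glucagon (11 and 17 in both comparisons without vehicle library a). Of all genes, 13% rose and 12.8% fell with cAMP, and 9.35% rose and 9.53% fell with glucagon. Without library a, 28.9% and 24.4% of all genes were called in either direction. The median of the 42 was 0.00 with cAMP and -0.06 with glucagon. Socs3, the feedback inhibitor of interleukin-6 signalling, had 941.2, 873.2 and 927.5 scaled reads with cAMP and 370.7, 459.4 and 425.5 with glucagon, against 103.9, 122.8 and 110.2 with vehicle. That is a log2 rise of 3.02 with cAMP (limma adjusted p = 4.04e-14) and 1.89 with glucagon (limma adjusted p = 5.19e-11). Stat3 rose by 0.64 with cAMP and 0.58 with glucagon, and the C/EBP family member Cebpb by 0.65 and 0.30. Cebpd, another member of that family, fell by 0.45 with cAMP and by 0.95 with glucagon.

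Nfkbia, an inhibitor of NF-kB that NF-kB itself induces, had 615.2, 641.1 and 654.7 scaled reads with cAMP and 725.1, 826.8 and 781.8 with glucagon, against 1194, 1168 and 1123 with vehicle, a log2 fold change of -0.87 with cAMP and -0.58 with glucagon. Tnfaip3, another inhibitor in that loop, fell by 1.35 with cAMP and by 0.83 with glucagon. Il6ra, the receptor chain that binds interleukin-6, fell by 0.63 with cAMP and stood at -0.27 with glucagon (limma adjusted p = 0.173). Nfkbiz, a cofactor needed for Lcn2 induction, gave 0.20 with cAMP and -0.02 with glucagon, neither past the threshold. Foxa2, a liver transcription factor, rose by 1.29 with cAMP and 1.21 with glucagon, and Bcl3, a partner of NF-kB subunits, by 1.01 and 0.71. Socs2, a feedback inhibitor of STAT signalling, gave -1.84 and -1.25, and Fosl1, a subunit of AP-1, -2.11 and -1.93.

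With IL-13 on cAMP, 9 of the 42 rose and 3 fell (10 and 4 without vehicle library a), and on glucagon 7 rose and 1 fell (9 and 3 without it). Of all genes, 2.52% rose and 1.38% fell on cAMP, and 3.5% rose and 2.23% fell on glucagon. Without library a, 765 genes on cAMP and 1218 on glucagon were called in either direction, of 12703 tested. Cish, a feedback gene of STAT signalling, rose by 1.80 on cAMP and 1.91 on glucagon, Nfkb1 by 0.78 and 0.75, Socs3 by 0.43 and 0.68, and Il6ra by 0.54 and 0.45. Cebpb rose by 0.27 on glucagon and gave 0.10 on cAMP. Stat3 itself did not pass the threshold (-0.06 and -0.07), nor did Nfkbia (0.02 and -0.11) or Cebpd (0.03 and 0.32). The liver factor Hnf4a fell by 0.27 on cAMP and by 0.28 on glucagon, and Creb3l3, which drives acute phase genes in mouse liver, fell by 0.37 on cAMP.

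**Figure D4:**
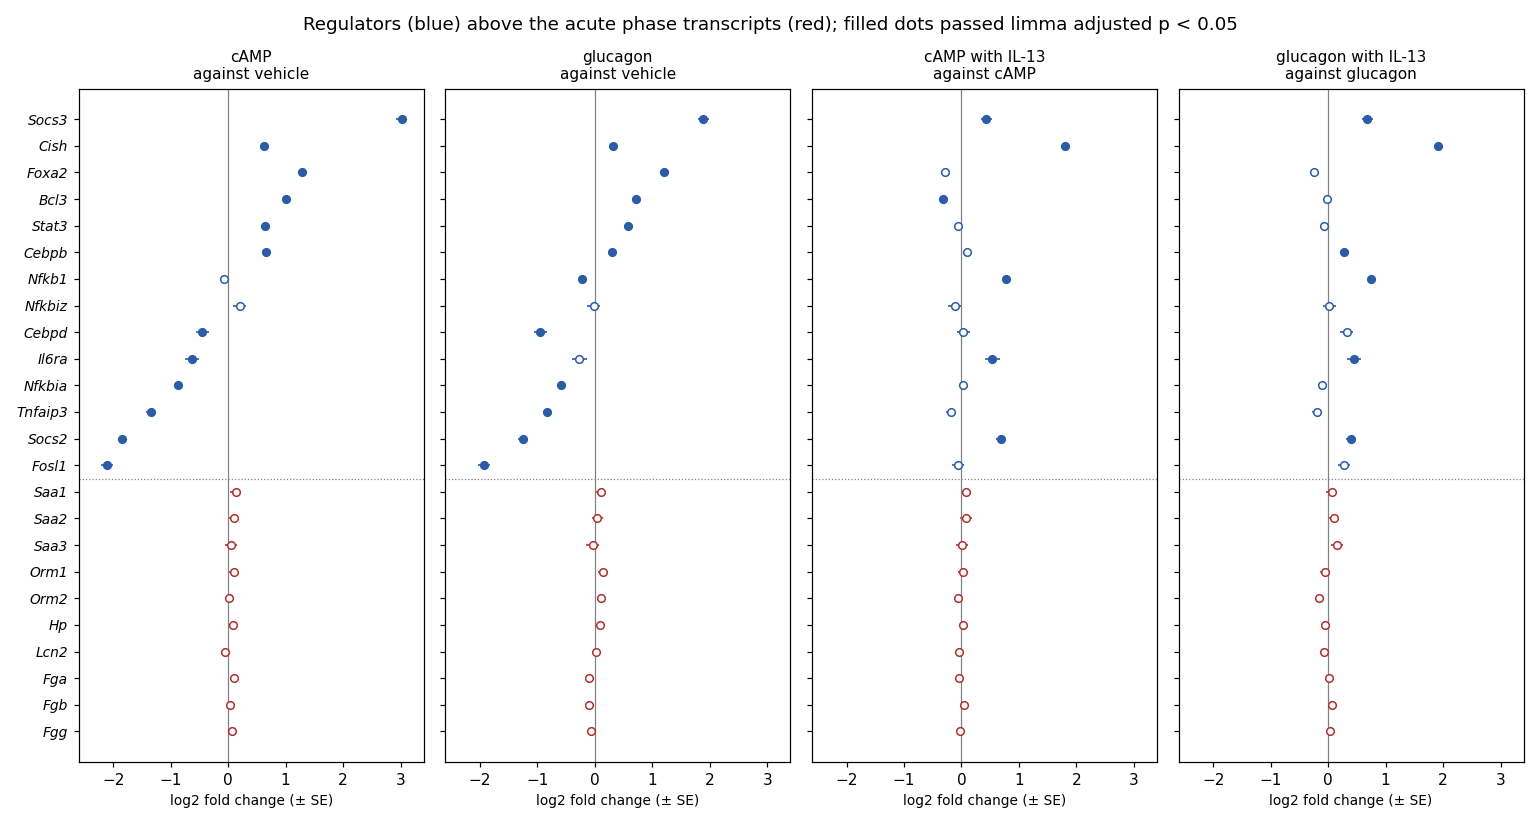
Log2 fold changes with their SE (x axis) of 14 genes of acute phase signalling (blue, upper rows) and all 10 acute phase genes (red, lower rows) in 4 comparisons. The blue genes are known regulators and others picked from 42 tested for large called changes, so the spreads are not those of like sets. Filled dots passed a limma adjusted p of 0.05. With cAMP, the blue dots spread from -2.11 to 3.02 and the red dots, none filled, from -0.06 to 0.13. The median of all 42 was 0 with cAMP.

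Among 34 other positive acute phase genes, those known to rise in inflammation, 7 rose and 3 fell with cAMP and 4 rose and 2 fell with glucagon. Without vehicle library a, 18 rose and 2 fell with cAMP, and 8 rose and 2 fell with glucagon. These counts stand beside 25.8% of all genes called with cAMP and 18.9% with glucagon (28.9% and 24.4% without library a). Il1rn, the interleukin-1 receptor antagonist, rose by 0.58 with cAMP and 0.56 with glucagon, and the lipopolysaccharide receptor Cd14, also a marker of Kupffer cells, the liver macrophages, by 0.51 and 0.20. Summed Kupffer cell markers, 16 genes of which Cd14 is one, stood at 11050 to 11610 scaled reads with cAMP and 10120 to 10420 with glucagon, against 9511 to 9872 with vehicle. The 15 other than Cd14 summed to 6437 to 7115 with cAMP and 6546 to 6730 with glucagon, against 6360 to 6628 with vehicle, so these ranges overlapped. The part of such cells in the values of Cd14 and Saa3 was not tested. The metallothionein Mt2 fell by 0.23 with cAMP and by 0.35 with glucagon, and Saa4, the serum amyloid A gene that is expressed without inflammation, by 0.39 with glucagon.

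IL-13 raised 2 of these 34 genes on cAMP and 2 on glucagon, Hamp and Il1rn in both cases. These counts stand beside 2.52% and 3.5% of all genes called higher. Without vehicle library a, 4 rose on each stimulus, when 765 genes on cAMP and 1218 on glucagon were called in either direction of 12703 tested. Hamp, which encodes the iron hormone hepcidin, had 11350, 10620 and 11300 scaled reads with cAMP and IL-13, against 6969, 6144 and 6802 with cAMP. With glucagon it had 8714, 10130 and 10000 with IL-13, against 5693, 5887 and 6068 without. The log2 rise was 0.74 on cAMP (limma adjusted p = 1.5e-06) and 0.71 on glucagon (limma adjusted p = 2.63e-06), and no libraries overlapped. Il1rn rose by 0.45 and 0.27. On glucagon, Hpx, the haem scavenger hemopexin, fell by 0.12. It was the 1 gene of the 34 called lower (2 without vehicle library a), beside 2.23% of all genes.

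For each member, the genes whose levels ran most like its own over the 15 libraries were taken. Saa1 was most like Eef1d, C8g and Vtn (Pearson r 0.963 to 0.969 on the log2 scale, among genes with a mean of at least 100 scaled reads), and Saa2 like C8g, Apoc1 and Asgr1. C8g and Vtn encode the plasma proteins complement C8 gamma and vitronectin. Saa3 was most like Cdc37, Chchd10 and Ttc36 (0.898 to 0.909), and Hp like Psmc3, Tmem205 and the coagulation factor F10 (0.922 to 0.948). Orm1 was most like Cd302, Kng1, the plasma kininogen, and Cox7b (0.948 to 0.952), and Orm2 like Prdx1, Cstb and Ugt2b36 (0.962 to 0.970). Fga and Fgb shared Ang, angiogenin, as their nearest gene (0.945 and 0.956), while Fgg was nearest to Eif1 (0.907). Lcn2 had the weakest partners, Tm4sf4, Sgce and Echs1 (0.848 to 0.895). Among the members, Saa1 and Saa2 correlated at 0.981, Saa1 and Hp at 0.908, Fga and Fgb at 0.898, and Saa1 and Lcn2 at -0.049. These are descriptions over 15 libraries that share the length trend above.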

How the data were processed

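RNA was sequenced from 15 libraries of mouse primary hepatocytes. The authors used TopHat 1.3.2, mm10 and Cufflinks 2.0.2 according to the submitters' processing notes, and deposited FPKM, and a second table of deposited signal, which holds estimated reads scaled by 1 factor per library. The sources used here do not give whether strand entered the counting. The filter on low values, 10 scaled reads or more in 3 libraries or more, left 12703 of 24347 genes. A model of group alone was fitted to log2(scaled reads + 1) over all 15 libraries with limma 3.58.1 in R 4.3.3. Settings were robust trend, two-sided, Benjamini-Hochberg over all genes tested, threshold 0.05. Fold changes are on that scale, which understates changes of low genes. The model was also run on simulated libraries, which had the same setting of spread throughout and no trend on transcript length. Whole reads could not be recovered, so no count test was run, and depth beyond the scaled totals is not known. The check of replicate numbers over the 12 numbered libraries gave same-number correlations of -0.179 to 0.215, and the numbers were not taken as pairs.

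The members and gene lists were chosen with earlier results of these data known. Besides the 10 members and 7 known regulators (Stat3, Socs3, Cebpb, Cebpd, Nfkbia, Nfkbiz and Il6ra), up to 3 called genes with the largest rise and 3 with the largest fall were named per list and comparison, among those with a mean of at least 50 scaled reads and groups that did not overlap. For likeness, the 3 genes of highest Pearson r with a mean of at least 100 scaled reads were named, members and predicted genes left out. Alternatives were scaling, pseudocount, filter, unit, variance model, libraries in the fit, each library left out, the replicate block, summed copies and, chosen after seeing the data, removal of the trend on transcript length (lengths from GENCODE), a fit of the 12 numbered libraries alone, and list counts without vehicle library a. Alignments of promoters and transcripts used Biopython 1.88.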

Additional observations from a re-analysis of the deposited data

How the results depend on the processing

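With all 15 libraries, limma called 0 of the 10 genes in each of the 8 comparisons (0 to 2 at an unadjusted p under 0.05), and vehicle library a was the single library that moved these counts most. Leaving out each library in turn, the number called ran from 0 to 4 for cAMP against vehicle, from 0 to 3 for glucagon against vehicle, from 0 to 5 for cAMP with IL-13 against vehicle and from 0 to 2 for glucagon with IL-13 against vehicle. It ran from 0 to 1 for glucagon with IL-13 against glucagon and for glucagon against cAMP, and stayed at 0 for cAMP with IL-13 against cAMP and for the difference of the IL-13 effects. Without both vehicle library a and cAMP library 2 the counts were 1 for cAMP, 3 for glucagon, 6 for cAMP with IL-13 and 1 for glucagon with IL-13 against vehicle, and 1 each for glucagon with IL-13 against glucagon and glucagon against cAMP.

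For glucagon against cAMP, Fga was called on FPKM (-0.23, limma adjusted p = 0.012), in a fit of these groups only (1 call, limma adjusted p = 0.0329) and with the length trend removed (1 call, limma adjusted p = 0.0119). For cAMP with IL-13 against vehicle, Lcn2 was called with library size scaling (1 call, -0.19, limma adjusted p = 0.00395), and Saa1 and Lcn2 with the length trend removed (2 calls, 0.16 and -0.15). With the replicate block, Fga and Fgb were called for glucagon against cAMP (2 calls, limma adjusted p = 0.0111 and 0.0359), and the same 12 libraries with no replicate block also gave 2, and 1 (Orm2) for glucagon with IL-13 against glucagon. The block fit has no vehicle libraries, and 4 of 12 libraries correlated best with a library of their own number. Among 2000 member values under 26 settings, 71 changed sign, 45 were called and none exceeded 0.31 on the log2 scale in size. The number of all genes called fell to 2042 for cAMP, 1294 for glucagon and 1551 for glucagon with IL-13 against vehicle in fits of the compared groups only, against 3272, 2399 and 2613 with all libraries, and the cause was not tested. For cAMP with IL-13 against cAMP, 495 became 963 in such a fit and 780 in the 12 libraries with no block. edgeR and DESeq2 on recovered reads were not run, since whole reads could not be recovered. What the scaled values cannot show is the reads behind each level.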

Other observations

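None of the liver genes listed as known to fall in inflammation, most of them for plasma proteins, was called lower with either stimulus. Of 20 such genes, 6 rose and 0 fell with cAMP and 4 rose and 0 fell with glucagon against vehicle by limma. Of all genes, 13% rose and 12.8% fell with cAMP, and 9.35% rose and 9.53% fell with glucagon. Without vehicle library a, 12 and 9 rose and 0 fell, when 28.9% and 24.4% of all genes were called in either direction. The median log2 fold change was 0.13 with cAMP and 0.10 with glucagon, beside 0.01 and 0.02 for all genes. Apoc3, an inhibitor of lipoprotein lipase, averaged 17970 scaled reads with cAMP, against 14510 with vehicle (0.31, limma adjusted p = 0.0011). Hrg, which encodes histidine-rich glycoprotein, rose by 0.29 with cAMP and 0.29 with glucagon, and Igf1, the growth factor, by 0.25 and 0.31. IL-13 raised Igf1 further, by 0.38 on cAMP and 0.35 on glucagon, and Serpina6, which encodes the corticosteroid carrier of plasma, by 0.46 on cAMP.

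Of 18 coagulation factors of the liver, which share the plasma with fibrinogen, 5 rose and 0 fell with cAMP. With glucagon, 2 rose and 0 fell, beside the same shares of all genes. Without vehicle library a, 11 and 8 rose and 0 fell, when 28.9% and 24.4% of all genes were called in either direction. The 12 hepatocyte markers had medians of 0.15 with cAMP and 0.12 with glucagon. Alb, Ttr, Trf and Apoa1 stand among these markers and also among the genes known to fall in inflammation. The part of the share of hepatocytes in the values of the coagulation factors and of those genes was not tested. F7, F10 and Proc, vitamin K dependent proteins, rose by 0.25, 0.25 and 0.21 with cAMP, and F11 by 0.24 with glucagon.

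Of 8 cytokines that induce acute phase genes, 3 rose and 3 fell with cAMP, and 2 rose and 2 fell with glucagon. The counts were equal without vehicle library a. Shares of all genes called, for this list and for the receptors and partners below, were 25.8% with cAMP and 18.9% with glucagon. Without vehicle library a they were 28.9% and 24.4%. Il1b averaged 203.2 scaled reads with cAMP, against 12.94 with vehicle (3.92, limma adjusted p = 6.42e-08), and 16.83 with glucagon, against 203.2 with cAMP (-3.58, limma adjusted p = 2.54e-06). Il1a rose by 0.60 with cAMP and 0.54 with glucagon, while Lif, a gp130 cytokine, gave -0.72 and -0.71. Clcf1, another, averaged 386.6 scaled reads with cAMP and 380.9 with glucagon, against 773.7 with vehicle. Of 11 receptors and partners of the acute phase proteins, 0 rose and 2 fell with cAMP and 0 rose and 1 fell with glucagon (1 and 2, and 1 and 1, without vehicle library a). Tlr2, one of them and a receptor for serum amyloid A, fell by 0.72 with cAMP and by 0.73 with glucagon. Kupffer cells also express Il1b. Their summed markers without Cd14 stood at 6437 to 7115 scaled reads with cAMP and 6546 to 6730 with glucagon, against 6360 to 6628 with vehicle, and their part in these values was not tested.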
